A study of Mus musculus with 8 samples.

Results

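The Tcstv cluster is a group of closely related genes on mouse chromosome 13, named for transcripts of the 2-cell embryo. Members were taken by symbol from the deposited gene table: Tcstv1, Tcstv3, AF067061, AF067063 and Gm20767. All 5 names were found, each once, among 13101 genes, and all 5 were among the 12434 genes tested, those whose mean FPKM (fragments per exon length, scaled between libraries as described with the processing) reached 0.5. RNA was measured by poly(A) RNA-seq in 8 pools of 12 to 18 embryos at the 2-cell stage from timed matings, 4 wild type (WT) and 4 with a knockout of Dux (Dux KO), all of the C57BL/6 background. The labels used here give no further detail of the Dux allele and do not state if pools had different parents; p-values therefore cover only the spread seen between these pools. The question is how transcripts of the cluster stand in embryos without Dux.

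Tcstv genes are switched on when the mouse embryo starts to transcribe its own genome, and they are silent in most later cells. They are also known from the rare embryonic stem cells that pass through a 2-cell-like state, and Tcstv1 and Tcstv3 have been reported to lengthen telomeres in stem cells. DUX, a double homeobox transcription factor, can activate genes of this type together with the retrovirus MERVL when it is expressed in stem cells.

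The members lie within 490218 bases of GRCm38, with 22 other annotated genes between them (GENCODE M21). AF067063 spans chr13:119827961-119830216 and Tcstv1 chr13:119893388-119894785, both on the minus strand. On the plus strand follow Gm20767 (chr13:120140246-120155335), AF067061 (chr13:120263114-120264517) and Tcstv3 (chr13:120316878-120318178). All are annotated as protein coding, with the coding sequence in 1 exon of 492 to 516 bases. The first 120 coding bases are shown because they set AF067063 apart from the other 4 genes. Capitals in Tcstv1, AF067061 and Gm20767 mark bases that differ from Tcstv3. Gm21731, a gene of the same interval that is no member, is added because its first 120 bases are those of AF067063.
Tcstv3, chr13:120317567-120317686, plus strand: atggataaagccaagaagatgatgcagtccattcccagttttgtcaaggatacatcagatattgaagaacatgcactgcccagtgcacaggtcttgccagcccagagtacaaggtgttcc
Tcstv1, chr13:119893975-119894094, minus strand: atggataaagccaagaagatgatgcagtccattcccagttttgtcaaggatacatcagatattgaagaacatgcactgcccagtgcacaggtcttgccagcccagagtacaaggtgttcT
AF067061, chr13:120263802-120263921, plus strand: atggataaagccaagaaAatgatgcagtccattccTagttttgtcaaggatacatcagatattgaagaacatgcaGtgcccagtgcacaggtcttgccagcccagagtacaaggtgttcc
Gm20767, chr13:120154627-120154746, plus strand: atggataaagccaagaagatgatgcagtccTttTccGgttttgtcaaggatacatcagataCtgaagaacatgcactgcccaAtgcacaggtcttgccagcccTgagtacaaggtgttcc
AF067063, chr13:119828539-119828658, minus strand: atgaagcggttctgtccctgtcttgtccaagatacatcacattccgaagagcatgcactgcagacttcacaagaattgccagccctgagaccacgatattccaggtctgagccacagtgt
Gm21731, chr13:120240670-120240789, plus strand: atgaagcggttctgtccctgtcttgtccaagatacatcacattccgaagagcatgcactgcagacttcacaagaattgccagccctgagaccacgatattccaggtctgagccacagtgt

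In this window Tcstv1 differed from Tcstv3 at 1 base, AF067061 at 3 and Gm20767 at 6. Over the aligned coding sequence, Tcstv1, Tcstv3, AF067061 and Gm20767 were 94.7 to 96.7% identical to each other, and AF067063 was 81.8 to 83.8% identical to them. AF067063 and Gm21731 were 99.8% identical, with 1 mismatch in 492 aligned bases. The last 120 coding bases set Tcstv1, AF067061 and Gm20767 further apart from Tcstv3, by 18, 16 and 16 bases. AF067061 and Gm20767 are nearly alike there. Capitals there mark bases that differ from Tcstv3 or have no counterpart in it.
Tcstv3, chr13:120317957-120318076, plus strand: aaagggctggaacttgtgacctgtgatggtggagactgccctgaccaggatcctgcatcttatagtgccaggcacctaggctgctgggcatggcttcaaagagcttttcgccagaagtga
Tcstv1, chr13:119893579-119893698, minus strand: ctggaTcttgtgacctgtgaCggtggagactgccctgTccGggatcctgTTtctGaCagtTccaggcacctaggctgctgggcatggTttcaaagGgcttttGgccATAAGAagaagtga
AF067061, chr13:120264198-120264317, plus strand: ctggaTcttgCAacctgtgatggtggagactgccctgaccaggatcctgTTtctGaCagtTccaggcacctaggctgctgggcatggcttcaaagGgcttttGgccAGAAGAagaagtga
Gm20767, chr13:120155017-120155136, plus strand: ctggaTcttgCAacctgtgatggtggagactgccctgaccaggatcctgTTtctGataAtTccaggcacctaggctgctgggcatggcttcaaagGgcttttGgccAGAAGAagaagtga

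This likeness bears on how far reads can be assigned to 1 gene. Of all 50-base stretches of the exons, 85.0% of Tcstv1, 76.6% of AF067061 and 68.6% of Tcstv3 were found in no other annotated transcript. The share was 29.8% for Gm20767 and 29.3% for AF067063. AF067063 shared 70.7% of its stretches with Gm21731 and none with a member, and Gm20767 shared 60.8% with Gm21761, another gene of the interval. No source used here says how reads with several positions were counted, so that values of these 2 genes in particular are uncertain.

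Gene reads recovered from the deposited values numbered 12343369 to 14548526 per pool, and the members took 0.0160 to 0.0288% of them. Dux itself was not analysed here. All 10 oocyte and 2-cell embryo markers were in the table, with a sum of 5279 to 6412 FPKM in WT pools and 3979 to 4722 FPKM in Dux KO pools. In Dux KO, 3 were higher (Bmp15, Zar1, Oog1) and 3 lower (Zp3, Padi6, Dppa3). The median log2 fold change of the 10 markers was 0.23. Dppa3 makes up most of their sum, with mean levels of 5244 (WT) and 3445 (Dux KO) FPKM, so that the lower sum mainly reflects this gene. Oog1 lost its call in 5 of 8 fits without 1 pool (limma adjusted p 0.0608 to 0.0827), Zar1 without Dux KO pool 1 (0.0542) and Dppa3 with quantile scaling (0.110). Of 10 markers each, cumulus cells had 3 in the table (1.25 to 9.07 FPKM in WT; 4.44 to 18.8 FPKM in Dux KO), oviduct epithelium 5 (132 to 155 and 99.4 to 152), blood 2 (9.41 to 12.8 and 9.83 to 20.2) and sperm 1 (46.1 to 78.4 and 22.8 to 44.3). In Dux KO the cumulus marker Cyp19a1 was higher and the sperm marker Ldhc lower. Mean levels of Cyp19a1 were 0.42 (WT) and 1.06 (Dux KO) FPKM, close to the limit of 0.5 on low values. Without Dux KO pools 1 and 2 the calls of Cyp19a1 and Ldhc were lost (limma adjusted p = 0.137 and 0.111). Epcam, which makes up most of the oviduct sum, was lower, a call lost in 3 of 8 fits without 1 pool (limma adjusted p 0.0592 to 0.0784). The other 4 oviduct markers did not pass but had log2 fold changes above 0, so that the median of the 5 was 0.76. The blood markers Cd74 and Cd52 did not pass (limma adjusted p = 0.196 and 0.969). The part of other cells in the members' values was not tested.

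AF067063 was the most abundant member and the only one to pass the test. Its level was 154, 151, 163 and 136 FPKM in the WT pools 1 to 4 and 104, 92.3, 91.4 and 141 FPKM in the Dux KO pools. Dux KO pools 1 to 3 lay below every WT pool, and pool 4 lay within the WT range, so that the groups overlapped. AF067063 fell from 151 ± 11.1 to 107 ± 23.1 FPKM (SD, n = 4), a log2 fold change of -0.51 on the log2(FPKM + 1) scale (95% interval -0.87 to -0.15, limma adjusted p = 0.0341). The exact two-sided permutation p of AF067063 alone was 0.0571, where 4 against 4 pools can give no less than 0.0286. So 1 of 5 members was called, where 33.6% of all genes tested were, 18.1% lower and 15.5% higher. AF067063 was also called lower by edgeR on recovered reads (adjusted p = 0.0394; 34.1% of genes called) and by DESeq2 (adjusted p = 0.0253; 38.3%), and in the authors' deposited table (adjusted p = 0.0350; 34.8%), and no other member was called by these. The call of AF067063 was lost in 7 of the 8 fits that left out 1 pool (limma adjusted p 0.0550 to 0.0811), all but the one without Dux KO pool 4 (adjusted p = 0.0113). In bulk pools, fewer cells with a transcript and less of it per cell cannot be told apart.

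Tcstv3, with Tcstv1 one of the genes that gave the family its name, did not pass. It stood at 84.1, 61.6, 49.4 and 29.6 FPKM in the WT pools and at 37.9, 86.9, 50.7 and 38.5 FPKM in the Dux KO pools. The groups lay over each other: the highest value was in Dux KO pool 2 and the lowest in WT pool 4. Means of Tcstv3 were 56.2 ± 22.8 and 53.5 ± 23.0 FPKM. Its log2 fold change was -0.06, with a 95% interval from -0.76 to 0.64 (limma adjusted p = 0.896; two-sided exact permutation p = 0.971).

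Tcstv1 measured 24.6, 20.4, 16.7 and 9.40 FPKM in the WT pools. Its Dux KO pools held 22.9, 56.1, 25.7 and 16.5 FPKM. Dux KO pools 2 and 3 lay above every WT pool and the other 2 within the WT range. Means of Tcstv1 were 17.8 ± 6.46 and 30.3 ± 17.6 FPKM. Its log2 fold change was 0.66, with a 95% interval from -0.11 to 1.43 (limma adjusted p = 0.158; two-sided exact permutation p = 0.229). Tests on recovered reads gave Tcstv1 log2 fold changes of 0.80 (edgeR adjusted p = 0.0952) and 0.79 (DESeq2 adjusted p = 0.0611).

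AF067061 and Gm20767 encode further members of the family, with no role stated here. AF067061 measured 12.1, 5.08, 6.27 and 4.22 FPKM in the WT pools and 5.64, 17.8, 9.22 and 6.70 FPKM in the Dux KO pools. Gm20767 was lowest of the 5, at 6.44, 3.23, 3.32 and 3.25 FPKM in the WT pools and 2.94, 9.40, 4.96 and 3.32 FPKM in the Dux KO pools. For both genes WT pool 1 was the highest WT pool and Dux KO pool 2 the highest of all, and the groups overlapped. The log2 fold change was 0.43 for AF067061 (95% interval from -0.33 to 1.18; limma adjusted p = 0.346; two-sided exact permutation p = 0.40). It was 0.22 for Gm20767 (95% interval from -0.44 to 0.88; limma adjusted p = 0.587; two-sided exact permutation p = 0.629). None of the 5 members had groups without overlap, against 33.1% of all genes tested.

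**Figure D1:**
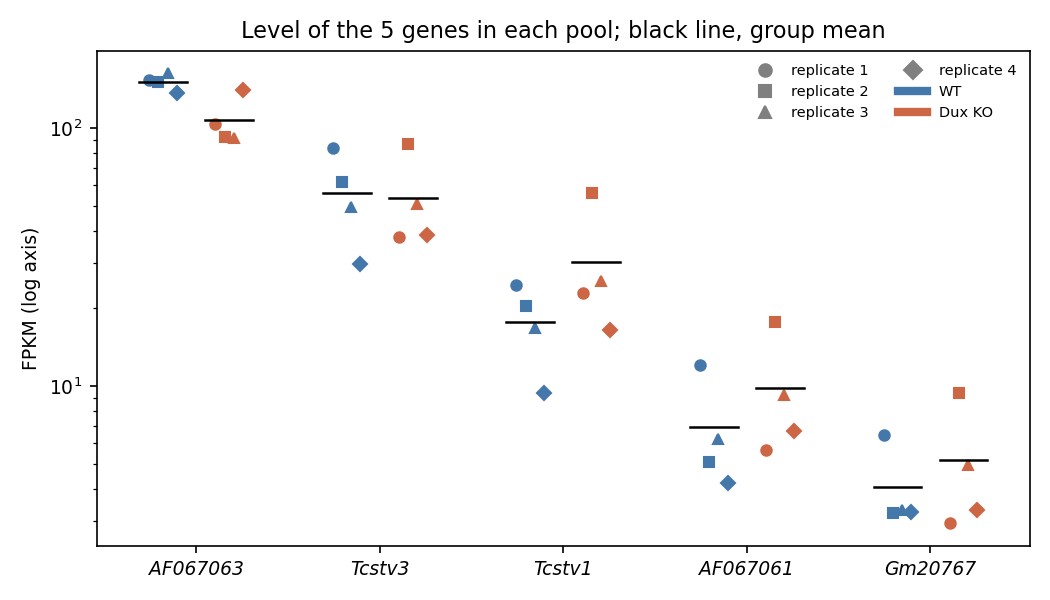
FPKM of the 5 members in each pool on a log axis, with WT pools in blue and Dux KO pools in orange, marked by replicate number; black lines are group means. AF067063 sits between 91.4 and 163 FPKM in all 8 pools, while the other 4 genes spread widely in both groups, with Dux KO pool 2 highest for each.

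All 5 transcripts remained detectable without Dux. In every pool FPKM followed the same order: AF067063, Tcstv3, Tcstv1, AF067061 and Gm20767. In WT the ranges of AF067063, Tcstv3 and Tcstv1 did not overlap, while those of Tcstv1 and AF067061, and of AF067061 and Gm20767, did. In Dux KO the range of AF067063 alone was clear of its neighbour's. The deposited FPKM of Tcstv1 and AF067061 divide by exon lengths of 1398 and 1404 bases that include an intron kept in an unspliced transcript, against 875 and 881 bases of the spliced ones. In reads per spliced length and library size, Tcstv1 (969) exceeded Tcstv3 (939) in Dux KO pool 2, which turned their order there.

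The 5 genes differed in how far they varied between pools. The coefficient of variation of AF067063 was 7.38% in WT, lower than in most genes (6.34% of tested genes had a lower one), and 21.6% in Dux KO. Among genes within 2-fold of its level, 13.8% had a lower one in WT and 62.9% in Dux KO. For the other 4 it was 36.3 to 51.5% in the WT pools and 43.0 to 58.1% in the Dux KO pools, while the median over all tested genes was 21.6% in WT and 22.1% in Dux KO. Counting error alone amounts to 2.42 to 11.6%. From the lowest to the highest pool, Tcstv1 ranged 5.97-fold and AF067063 1.79-fold.

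**Figure D2:**
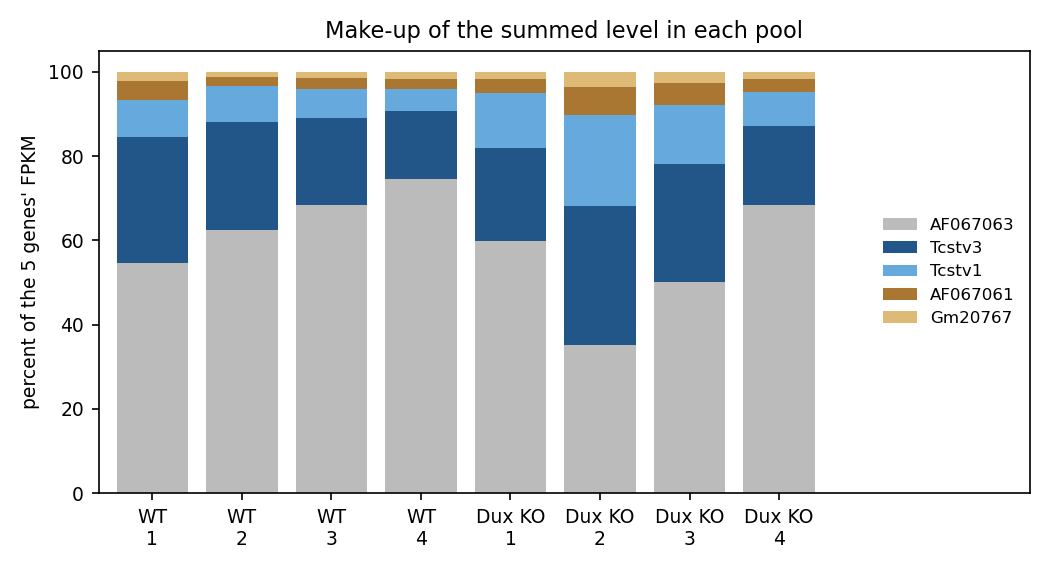
Share of each member in the summed FPKM of the 5 members, as stacked bars that add to 100 percent in each of the 8 pools. AF067063 makes up 54.7 to 74.6% in the WT pools and 35.2 to 68.4% in the Dux KO pools, and Tcstv1 takes its largest share, 21.4%, in Dux KO pool 2.

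The summed FPKM of the members was 281, 241, 239 and 183 in WT and 173, 262, 182 and 206 in Dux KO, and the groups overlapped. Without AF067063 the sum was 127, 90.4, 75.8 and 46.5 FPKM in the WT pools and 69.4, 170.2, 90.6 and 65.1 FPKM in the Dux KO pools. AF067063 took 54.7, 62.5, 68.3 and 74.6% of the members' FPKM in WT. In Dux KO it took 59.9, 35.2, 50.2 and 68.4%. The ranges of these shares overlapped.

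Ratios of FPKM between members, which do not depend on the scaling of a pool, were compared for all 10 pairs. The tests used log2 ratios of FPKM + 1, where the added 1 leaves some dependence on scaling, most for genes of low level. The ratio of Tcstv1 to Tcstv3 was 0.293, 0.332, 0.339 and 0.317 in WT and 0.604, 0.646, 0.506 and 0.429 in Dux KO. Every Dux KO pool thus had more Tcstv1 for its Tcstv3 than any WT pool, although neither gene passed on its own. Among all single genes tested, 33.1% had groups without overlap, and ratios of other gene pairs were not examined. The mean ratio was 0.32 ± 0.0203 in WT and 0.546 ± 0.0976 in Dux KO (SD, n = 4), a difference of 0.72 in log2(FPKM + 1) (exact permutation p = 0.0286, two-sided, the smallest these pools can give; 0.143 adjusted over the 10 pairs). In recovered reads the ratio was 0.525 to 0.608 in the WT pools and 0.770 to 1.16 in the Dux KO pools. The difference was 0.52 without Dux KO pools 1 and 2 and 0.92 without pools 3 and 4.

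The ratio of Tcstv3 to AF067061 was 6.94, 12.1, 7.89 and 7.02 in WT and 6.72, 4.88, 5.50 and 5.75 in Dux KO, a log2 difference of -0.48 (exact permutation p = 0.0286, two-sided; 0.143 adjusted over the 10 pairs). Its groups did not overlap either, but WT pool 1 and Dux KO pool 1 lay close together. The ratio of AF067061 to Gm20767, the pair of closest sequence, was 1.30 to 1.89 in the WT pools and 1.86 to 2.02 in the Dux KO pools (log2 difference 0.21, exact permutation p = 0.143, two-sided). The other 7 pairs overlapped, with exact permutation p-values of 0.0857 to 0.40. The largest difference among them was 1.18 for Tcstv1 over AF067063 (exact permutation p = 0.0857, two-sided; 0.238 adjusted). No pair passed the adjustment.

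**Figure D3:**
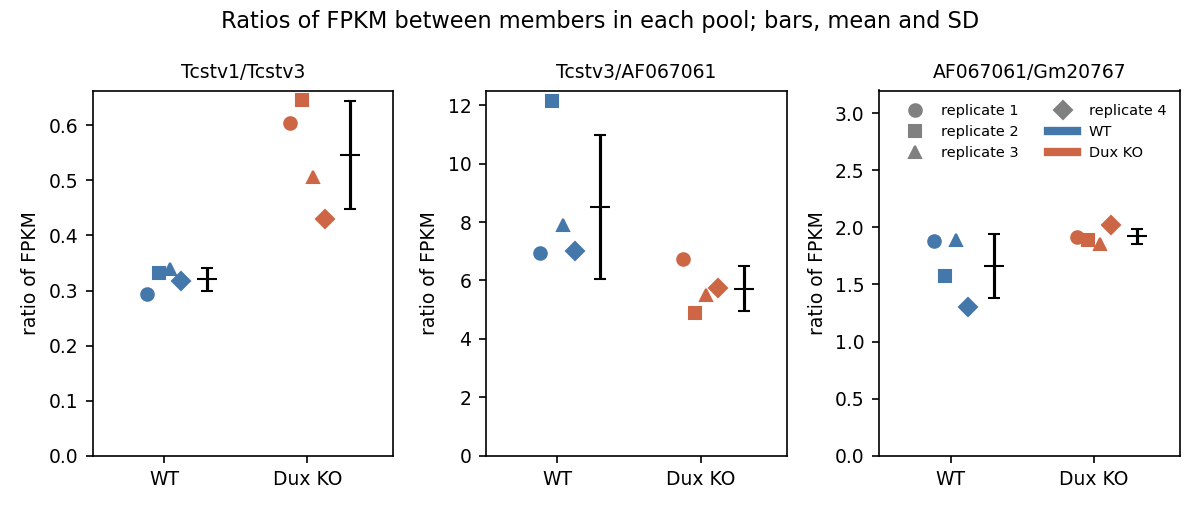
Ratio of FPKM in each pool for 3 pairs of members, with the mean and SD beside the points; axes start at 0. For Tcstv1/Tcstv3 the 4 WT pools sit between 0.293 and 0.339 and the Dux KO pools between 0.429 and 0.646; for Tcstv3/AF067061 the order is the other way, and for AF067061/Gm20767 the groups overlap.

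Tcstv1, Tcstv3, AF067061 and Gm20767 varied together from pool to pool. Over the 8 pools, Pearson's r of log2(FPKM + 1) was 0.793 to 0.962 for their 6 pairs (permutation p 0.00107 to 0.0135; 0.0107 to 0.0225 adjusted over 10 relations). Spearman's rho was 0.571 to 0.905 (permutation p 0.00456 to 0.151; 0.0456 to 0.252 adjusted). Without the 2 pools farthest from the median, Dux KO pool 2 and either WT pool 4 or WT pool 1, r was 0.427 to 0.801, so that the relation rested in part on those pools. After each group was centred on its mean, r was 0.825 to 0.970. For AF067063 with the 4 genes, r was -0.607 to -0.0843 over all pools (adjusted permutation p 0.146 to 0.838). The sign of its relation to each of the 4 was positive within WT and negative within Dux KO, and 4 pools a group are too few to test it. In each pool the genes share 1 library and its scaling, and reads of the shared stretches may be counted for more than 1 of these genes.

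Genes outside the cluster with a like pattern were ranked by r with the mean of the 5 members over the 8 pools, among 11133 genes whose mean reached 1 FPKM. Gm38153 (r = 0.977), Fbxl12 (0.965), Gm5662 (0.956), Gm21818 (0.951) and Zfp770 (0.946) came first. Gm21818 lies in the interval and shares 19.0% of the 50-base stretches of Tcstv3 and 11.8% of those of Tcstv1. With each group centred on its mean, the order was Gm21818 (0.996), Tex26 (0.989), Gm35996 (0.985), Bex3 (0.977) and Gm38153 (0.977). An r over 0.9 was reached by 17 genes (0.153%), or by 116 (1.04%) after centring.

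**Figure D4:**
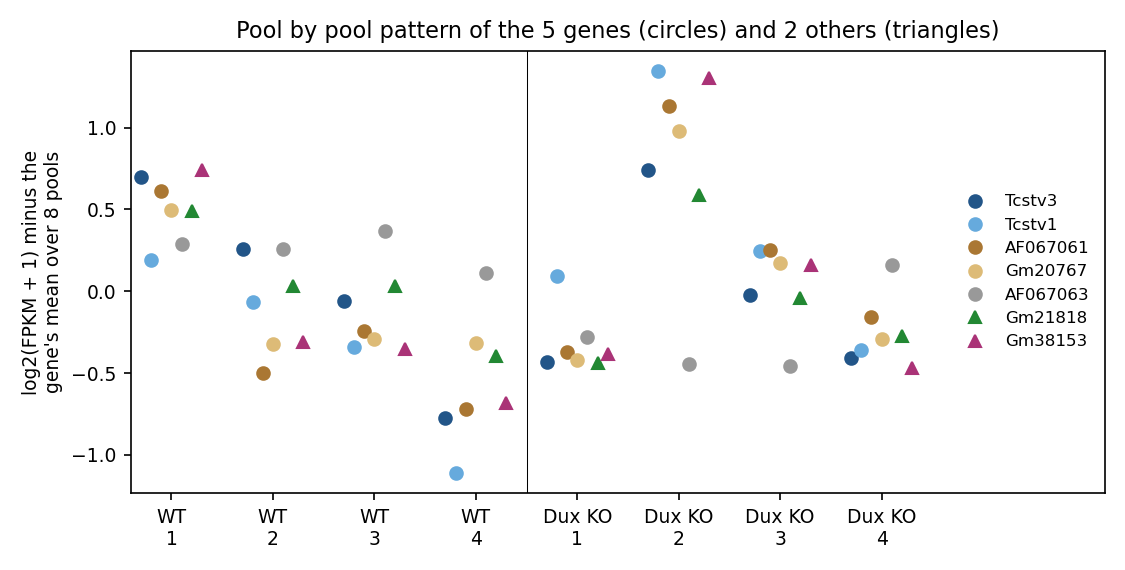
Log2(FPKM + 1) of each gene minus its mean over the 8 pools, for the 5 members (circles) and for Gm21818 and Gm38153 (triangles). In Dux KO pool 2 all genes but AF067063 lie above their mean, and in WT pool 4 all but AF067063 lie below it.

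Of the 22 other annotated genes between the members, 7 were in the table, and 3 of these were lower in Dux KO and none higher, where 18.1% of all genes tested were lower and 15.5% higher. The genes of the interval were added after their values were seen. D13Ertd608e, of these the nearest to AF067063, stood at 33.4 ± 6.69 FPKM in WT pools and fell by 0.93 on the log2 scale, to 17.03 ± 3.28 FPKM (limma adjusted p = 0.00617). Gm21731, the near copy of AF067063, measured 84.0, 88.6, 66.2 and 61.5 FPKM in the WT pools and 46.4, 53.1, 37.7 and 50.1 FPKM in the Dux KO pools. Gm21731 fell by 0.66 on the log2 scale (limma adjusted p = 0.0145), and its groups did not overlap. AF067063 shares 70.7% of its 50-base stretches with Gm21731, so that the 2 falls may not be independent. The call of Gm21731 was lost with quantile scaling (-0.45, limma adjusted p = 0.0813), without Dux KO pools 1 and 2 (adjusted p = 0.0538) and without pools 3 and 4 (adjusted p = 0.0575). Gm21762, at 24.4 ± 7.65 FPKM in WT pools, fell by 0.77 on the log2 scale, to 13.6 ± 2.92 FPKM (limma adjusted p = 0.0246). Gm21762 lost its call in 4 of 8 fits without 1 pool, those without WT pool 1 or 2 or Dux KO pool 1 or 4 (limma adjusted p 0.0527 to 0.0681), and with quantile scaling (0.0531). It was also lost without Dux KO pools 1 and 2 (limma adjusted p = 0.0795) and without pools 3 and 4 (adjusted p = 0.105). Gm21818, Gm21761, B020031M17Rik and BC147527 did not pass, with log2 fold changes of -0.08, 0.21, -0.22 and 0.0034. Outside the interval, Zfp131, a zinc finger gene beside AF067063, did not pass either (51.6 ± 4.60 and 42.6 ± 4.49 FPKM; limma log2 fold change -0.27, adjusted p = 0.150). Nim1k, the second gene on that side, was under the limit on low values, and no annotated gene follows Tcstv3.

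**Figure D5:**
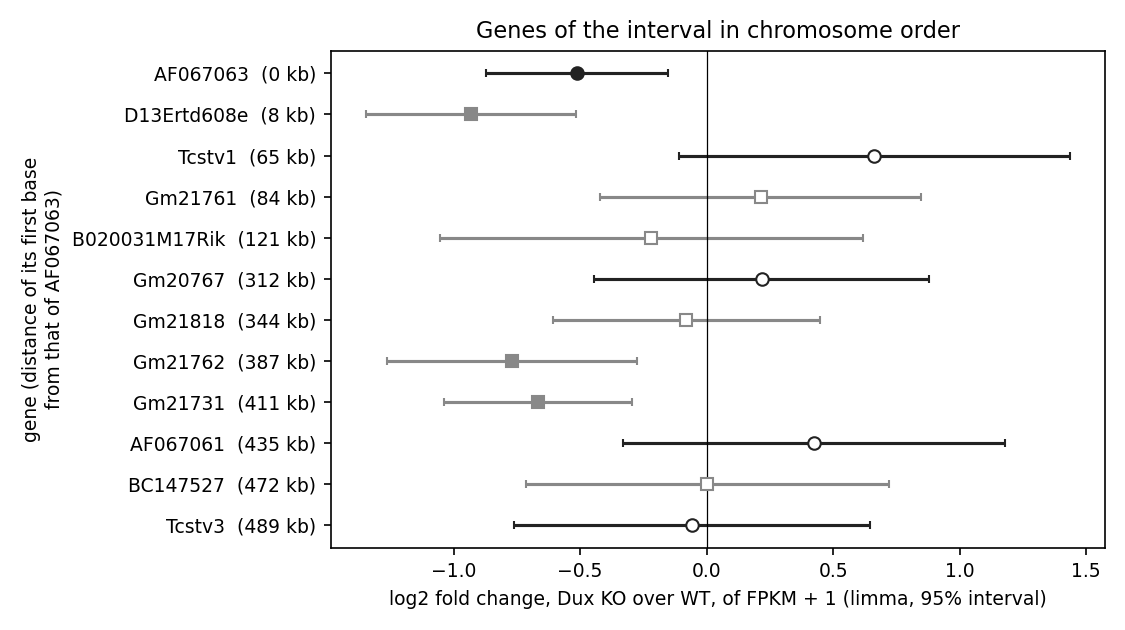
Log2 fold change in Dux KO with 95% intervals for the members (black circles) and the other tested genes (grey squares), in chromosome order, with the distance from AF067063 in kb beside each name; filled markers have an adjusted p under 0.05. AF067063, D13Ertd608e, Gm21762 and Gm21731 are filled and below 0, and the other members are open.

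Other genes known to respond to DUX at the 2-cell stage gave a background for the cluster. Of 47 listed, 30 were in the table and tested, and 12 were lower in Dux KO and none higher, where 18.1% of all genes were lower and 15.5% higher. The median log2 fold change was -0.53, against -0.02 over all genes. Groups without overlap were found for 6 of the 30, against 33.1% of all genes tested. Gm21319 (log2 fold change -1.38), Gm5039 (-1.28), Gm8300 (-1.15) and B020004J07Rik (-1.03) fell most. Of these, only B020004J07Rik had groups without overlap. Gm5039 and Gm8300 each lost their call in 5 of 8 fits without 1 pool, those without WT pool 1, 2 or 4 or Dux KO pool 1 or 4 (limma adjusted p 0.0527 to 0.0755 and 0.0559 to 0.105). B020031M17Rik, also listed, lies between the members. Among the 5 members 1 was lower and none higher, with a median of 0.22. After centring, r with the members' mean was over 0.7 for 37.9% of 29 listed genes, against 10.2% of all genes. Among the listed genes this r ran from -0.83 to 0.89, and B020031M17Rik was 1 of those over 0.7 (0.854). MERVL-int, the internal part of MERVL, measured 11360 to 16381 FPM (fragments scaled to library size) in the WT pools and 4548 to 6050 FPM in the Dux KO pools. Dux KO pool 2, highest for Tcstv1 and Tcstv3, had 5395 FPM of MERVL-int, below every WT pool.

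Telomere maintenance genes, listed because Tcstv1 and Tcstv3 are known for telomere lengthening, were higher in 1 and lower in 8 of 25 tested (27 listed), with a median log2 fold change of -0.19. Over all genes 15.5% were higher and 18.1% lower, 33.6% in either direction, with a median of -0.02. The share of telomere genes called in either direction is near that 33.6%, but more of their calls were lower. Whether the list differs from all genes was not tested. Acd, the shelterin subunit TPP1, stood at 16.7 ± 1.87 FPKM in WT pools and rose by 0.86 on the log2 scale, to 31.9 ± 8.75 FPKM (limma adjusted p = 0.00907). Nhp2, a protein of the telomerase ribonucleoprotein, fell from 694 ± 28.5 to 376 ± 75.7 FPKM. Dclre1b, the nuclease Apollo, fell by 0.99 on the log2 scale, Ctc1, of the CST complex, by 0.78, and Wrap53, which carries telomerase to Cajal bodies, by 0.75.

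A promoter sequence was found for 1 of the 5 members, AF067061 (RefSeq, GRCm38.p6). It is shown because homeodomain factors of the early embryo are known to bind the motif GGATTA. Capitals mark the matches to GGATTA or its reverse TAATCC, the sequence being the 250 bases before the start that RefSeq gives on the plus strand, which lies upstream of the GENCODE start given above.
AF067061, chr13:120262845-120263094: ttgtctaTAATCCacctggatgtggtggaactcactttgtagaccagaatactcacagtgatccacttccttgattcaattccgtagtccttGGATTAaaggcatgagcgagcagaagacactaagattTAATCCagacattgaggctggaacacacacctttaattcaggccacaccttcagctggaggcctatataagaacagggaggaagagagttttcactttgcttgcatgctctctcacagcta
It holds 3 matches, where 6.25% of 32851 promoters hold at least 1 and 0.0244% at least 3. TATAAA, searched on either strand in this exact form and not in its variants, is not in these letters, and 12.4% of promoters hold it. The core motif of DUX sites, searched on both strands, is not in them either, and 0.0304% of promoters hold it.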

How the data were processed

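Poly(A) RNA-seq of 8 pools was used, 4 WT and 4 Dux KO, grouped by the sample labels. The deposited gene table holds FPKM per pool, with the authors' mean signal, log2 fold change and adjusted p-value. The deposited repeat table holds FPM, read here as a signal scaled between libraries. Per the submitters' processing notes, Trimmomatic 0.32, STAR 2.6.1a and SAMtools 1.7 were used, with GRCm38 (mm10). No source used here gives the counter, its annotation or how reads with several positions were handled. No gene had a mean count under 25.0 in the deposited table, and 0 numeric columns were left unmapped to a pool.

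Whole reads were recovered from the FPKM steps (100% of values whole within 0.05). The worth of 1 read, 0.860 to 1.12 scaled counts, did not follow the recovered totals, from which scaling of FPKM by size factors is inferred. The length implied by each FPKM lay within 1% of the GENCODE M21 exon length for 99.5% of genes and for every member. Limma 3.58.1 (R 4.3.3) was run with trend and robust set, on log2(FPKM + 1) of the genes whose mean reached 0.5 FPKM, with Benjamini-Hochberg adjustment over 12434 genes and a threshold of 0.05. The log2(FPKM + 1) scale understates changes of low genes. Single members and ratios were tested by exact two-sided permutation over the 70 splits of the pools, and correlations by permutation. The limma fit and the permutation test were tested on simulated data.

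Alternatives were a pseudocount of 0.1, other limits on low values, quantile and median-of-ratios scaling, limma without trend, a replicate block, the authors' adjusted p-values, edgeR 4.0.16 and DESeq2 1.42.0 on recovered reads, and fits without pools. The members, lists and tests were chosen with earlier results of these data known. Named genes are the 5 members, up to 4 genes called higher and 4 called lower of each list (the 2 of highest mean if no gene was), the 5 genes of most alike pattern by each measure, the 2 nearest genes on each side and the repeat MERVL-int. The genes between the members were added after their values were seen.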

Additional observations from a re-analysis of the deposited data

Results flagged for a closer look

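Of 34 groups of 4 pools examined, 2 had a pool that stood apart from the rest by Dixon's test, which flags about 1 in 20 groups by chance. Gm20767 stood at 6.44 FPKM in WT pool 1, against 3.23 to 3.32 FPKM in the other WT pools. The ratio of AF067061 to AF067063 was 0.0787 in WT pool 1, against 0.0310 to 0.0384 in the others. Both rest on the same pool, which was also the highest WT pool for Tcstv1, Tcstv3 and AF067061.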

How the results depend on the processing

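The lower call of AF067063 kept its direction in all 20 alternatives and was lost in 9: with quantile scaling (log2 fold change -0.26, limma adjusted p = 0.214), without Dux KO replicates 1 and 2 (-0.41, adjusted p = 0.185) and in 7 of 8 fits without 1 pool (-0.56 to -0.44; the full range is -0.65 to -0.44, and -0.65, without Dux KO replicate 4, kept the call). On recovered reads it stayed (edgeR adjusted p = 0.0394, DESeq2 0.0253). Tcstv3 changed sign with quantile scaling (0.14), without Dux KO replicates 3 and 4 (0.13) and among fits without 1 pool (-0.33 to 0.16). Gm20767 changed sign in 1 alternative, without Dux KO replicate 2 (-0.071; -0.071 to 0.42 over the fits without 1 pool). Cd52 changed sign with quantile scaling (-0.027), without Dux KO replicates 3 and 4 (-0.30) and without 1 pool (-0.24 to 0.24). AF067061 and Tcstv1 kept their direction throughout. Gm20767 gave no value where a mean of 5 FPKM was required. With the replicate number as a block Tcstv1 passed (log2 fold change 0.66, limma adjusted p = 0.0442) and 4732 genes changed. Deviations of same-numbered pools correlated at -0.115 to 0.328, and those of differently numbered pools at -0.404 to 0.271. The labels do not say if the numbers pair the pools. These correlations cannot decide it, as each deviation is taken from a mean of only 4 pools. The difference in log2 ratio of Tcstv1 to Tcstv3 was 0.52 without Dux KO replicates 1 and 2, 0.92 without 3 and 4, and 0.64 to 0.83 without 1 pool. Over all genes, 4182 changed, against 2527 to 4045 without 1 pool (2527 if WT replicate 4 was left out, 2686 if Dux KO replicate 1 was) and 800 when Dux KO replicates 1 and 2 were both left out. Where a mean of 5 FPKM was required, 1032 were higher and 1880 lower, around a median of -0.18, against 1933 and 2249. The cause of these shifts was not tested. Gm20767 rests on 57 to 211 reads a pool, which limits its precision.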
